A study of Mus musculus with 24 samples.

Results

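Type I interferon response genes were followed in bone marrow-derived macrophages from wild-type (WT) and Trem2-deficient mice. The 47 genes are a list of interferon-stimulated genes, matched by symbol. All 47 were matched to a row of the deposited table of 54532 genes, and all 47 were among the 11377 genes kept for testing, those that reached 1 FPKM (fragments scaled to exon length and to the mapped fragments of the library) in 4 or more of 24 libraries. The members reached 1 FPKM in every one of the 24 libraries, so the filter did not choose them through the group in which they were high.

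The cells were primary C57BL/6 macrophages grown for 7 days in medium conditioned by L929 cells. WT and Trem2(-/-) cells were left untreated, or were given apoptotic cell culture medium (ACM) or 500 nM S1P (sphingosine-1-phosphate, a signalling lipid) for 24 hours. ACM was FBS-free medium from AML12 cells, a mouse hepatocyte line, that had been made apoptotic with 800 µM palmitic acid. It can hold whatever those cells released, and palmitic acid if any remained, and their parts in a change cannot be told apart. What the untreated cells received in place of ACM or of S1P, the number of mice and the part of Trem2 that was deleted are not given in the labels. Each of the 6 groups had 4 libraries, and because nothing says that these came from separate animals or cultures, the p-values measure only the spread between libraries.

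Type I interferons are secreted when macrophages sense viral or displaced nucleic acids through receptors such as RIG-I, cGAS and the endosomal Toll-like receptors. They bind the receptor made of IFNAR1 and IFNAR2, and the kinases JAK1 and TYK2 then phosphorylate STAT2, which acts with IRF9 in a complex that binds the interferon-stimulated response element of its target genes. Macrophages in culture keep a low, steady level of this signalling. IRF7, itself a target, is the factor that amplifies interferon production.

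One library stood apart from its label. Trem2, the deleted gene, lay between 74.5 and 109 FPKM in the 12 WT libraries and between 35.7 and 40.7 FPKM in 11 of the 12 libraries labelled knockout, while the library labelled KO untreated 81 had 79.6 FPKM. Transcript from the Trem2 locus was thus lower in the knockout libraries but was not absent. In the library labelled KO untreated 81, all 47 members were above each of the 3 other knockout untreated libraries, as against 35% of kept genes. All 47 were also above each of the 4 WT untreated libraries, and 37 were above the highest WT ACM library. For these last counts the share of kept genes was not counted. Averaged over the 47 members, its log2(FPKM + 1) was 0.70 above the mean of WT untreated cells, where the WT ACM libraries were 0.53 to 0.60 above it and the 3 other knockout untreated libraries -0.10 to -0.02 (differences on the log2 scale). With the members left out, its root mean square distance over the other kept genes was smallest to WT ACM (0.21), next to WT untreated (0.23), and 0.28 to the other knockout untreated libraries. The library was kept under its label. Counts that rest on it are given with and without it, and so are the values named below whose call it changes. Because all groups share 1 estimate of the spread, it also widened the standard errors of comparisons that do not contain it.

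**Figure D1:**
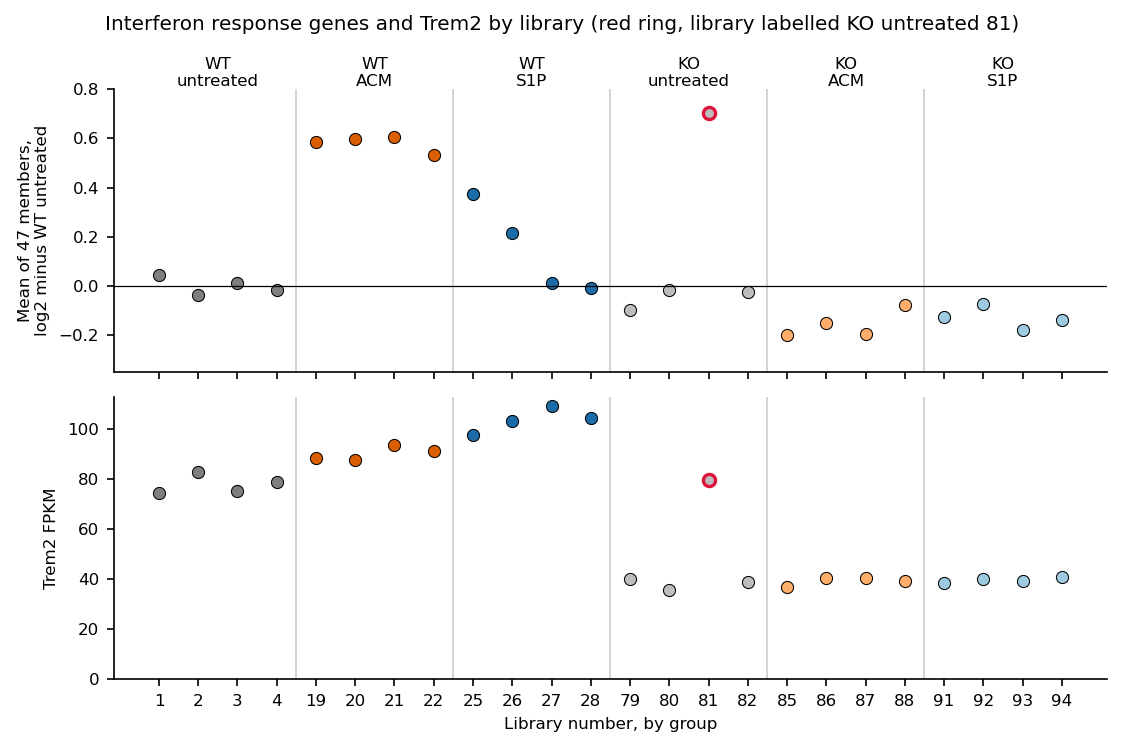
Mean log2(FPKM + 1) of the 47 members minus the mean of WT untreated cells (upper) and Trem2 FPKM (lower), with 1 point for each of 24 libraries and a red ring on the library labelled KO untreated 81. The 4 WT ACM libraries sit at 0.53 to 0.60, the WT S1P libraries spread from -0.01 to 0.38, and the ringed library sits at 0.70 with a Trem2 level of 79.6 FPKM.

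The WT S1P libraries also differed among themselves. Library 25 was the highest of the 4 for 46 of 47 members, and libraries 25 and 26 were both above 27 and 28 for 44 of 47, as against 29.5% of kept genes. Their mean differences from WT untreated cells were 0.38 and 0.22 for libraries 25 and 26, and 0.01 and -0.01 for libraries 27 and 28. The labels do not give a reason to separate these libraries, and all 4 were kept.

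Recovered depth was 16592000 to 25154000 reads per library, and a member had between 85 and 20399 reads in a library. In WT untreated cells the median coefficient of variation of a member was 4.07%, where counting error alone gave 2.23%. Library numbers run in blocks by group, so processing order, genotype and treatment cannot be told apart. Lymphocyte, fibroblast and conventional dendritic cell markers summed to at most 1.42 FPKM.

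Among the members, levels per length differed widely. Averaged over the 24 libraries, Ifi27l2a, which encodes a small hydrophobic protein, was highest at 936 FPKM, followed by Bst2 (475 FPKM), which encodes tetherin, and Lgals3bp (280 FPKM), a secreted glycoprotein. Isg15, the ubiquitin-like modifier, averaged 112 FPKM. Mx2 was lowest at 3.80 FPKM, after Herc6 (4.43 FPKM) and Ifit3b (5.24 FPKM). Several members are neighbours in GENCODE M21 (GRCm38). The 4 Ifit members are on chromosome 19, where Ifit2 (chr19:34550694-34576419) is followed by Ifit3, Ifit3b and Ifit1. The 6 oligoadenylate synthetase members are on chromosome 5. Rsad2 (chr12:26442746-26456452, minus strand) and Cmpk2 (chr12:26469204-26479837, plus strand) lie next to each other and are read away from each other. Irf7 is at chr7:141262706-141266481, Trim25 at chr11:88999376-89020293 and Isg15 at chr4:156199424-156200818.

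Promoters (250 bases before to 50 after a start site, RefSeq, GRCm38.p6) were found for 36 of the 47 members, and searched on both strands for the core of the interferon-stimulated response element (GAAA, any 2 bases, GAAA). The motif was present in 17 of the 36 (47.2%), as against 3.99% of 27025 genes. TTCNNNGAA, the gamma-activated site, was present in 8 of the 36 (22.2%), as against 9.55% of genes. The promoters below are those of the 6 members with the largest rise with ACM in WT cells among those that hold this core. They are shown 5′ to 3′ on the strand of the gene, with matches in capitals (a match on the opposite strand reads TTTC, any 2 bases, TTTC). They lie at chr19:34583279-34583578 (Ifit3, plus strand), chr12:26456403-26456702 (Rsad2, minus), chr19:34607707-34608006 (Ifit3b, plus), chr4:156200769-156201068 (Isg15, minus), chr19:34640639-34640938 (Ifit1, plus) and chr5:120777610-120777909 (Oas3, minus).
Ifit3: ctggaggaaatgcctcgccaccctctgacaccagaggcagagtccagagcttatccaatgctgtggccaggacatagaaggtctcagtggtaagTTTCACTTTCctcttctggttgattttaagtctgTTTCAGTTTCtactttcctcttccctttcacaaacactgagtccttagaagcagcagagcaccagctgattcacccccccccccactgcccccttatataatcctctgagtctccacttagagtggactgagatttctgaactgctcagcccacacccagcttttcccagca
Rsad2: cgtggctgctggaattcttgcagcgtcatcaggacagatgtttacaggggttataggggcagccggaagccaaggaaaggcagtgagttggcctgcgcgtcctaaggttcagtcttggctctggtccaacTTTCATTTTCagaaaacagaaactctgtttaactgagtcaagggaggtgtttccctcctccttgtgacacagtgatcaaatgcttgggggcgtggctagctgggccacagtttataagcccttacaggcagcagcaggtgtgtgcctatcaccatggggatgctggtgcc
Ifit3b: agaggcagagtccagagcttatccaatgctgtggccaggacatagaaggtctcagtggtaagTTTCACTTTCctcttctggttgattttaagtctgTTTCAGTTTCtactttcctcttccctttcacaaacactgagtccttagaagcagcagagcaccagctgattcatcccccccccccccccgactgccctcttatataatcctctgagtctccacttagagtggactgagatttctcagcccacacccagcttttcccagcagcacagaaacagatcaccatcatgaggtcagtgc
Isg15: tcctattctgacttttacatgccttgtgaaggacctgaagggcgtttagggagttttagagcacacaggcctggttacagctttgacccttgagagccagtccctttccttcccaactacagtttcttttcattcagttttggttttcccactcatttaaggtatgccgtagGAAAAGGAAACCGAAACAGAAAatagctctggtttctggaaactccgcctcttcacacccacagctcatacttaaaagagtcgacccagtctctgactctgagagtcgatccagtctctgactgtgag
Ifit1: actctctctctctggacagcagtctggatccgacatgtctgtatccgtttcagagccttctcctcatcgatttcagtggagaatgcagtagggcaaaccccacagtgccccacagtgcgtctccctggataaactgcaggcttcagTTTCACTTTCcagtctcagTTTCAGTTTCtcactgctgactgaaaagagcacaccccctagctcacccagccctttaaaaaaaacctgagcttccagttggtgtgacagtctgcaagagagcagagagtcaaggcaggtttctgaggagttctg
Oas3: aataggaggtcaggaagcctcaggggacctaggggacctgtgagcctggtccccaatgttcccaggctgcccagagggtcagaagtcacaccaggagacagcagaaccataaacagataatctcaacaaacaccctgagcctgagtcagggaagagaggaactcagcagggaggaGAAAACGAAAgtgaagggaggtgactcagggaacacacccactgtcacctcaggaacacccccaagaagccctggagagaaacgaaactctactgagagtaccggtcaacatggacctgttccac
Ifit3, Ifit3b and Ifit1 held the same pair of matches in the same order, and Isg15 held 3 overlapping ones. The median log2 change with ACM in WT cells was 0.46 for the 17 members with it and 0.48 for the 19 without it in this window.

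ACM raised nearly the whole set in WT cells. Of the 47 members, 44 rose and 0 fell (limma, adjusted p under 0.05; 45 had an unadjusted p under 0.05), where 12.2% of the kept genes were called higher and 9.85% lower. The median log2 change was 0.48, beside 0.00 over all kept genes. For 45 members every WT ACM library was above every WT untreated library, which was so for 15.2% of kept genes. On leaving out the library labelled KO untreated 81, which is in neither group but enters the shared spread, 45 rose, beside 13.8% of kept genes. The largest changes were in Ifit2 and Ifit3, each about 2.30-fold on the FPKM + 1 scale, and the smallest among those called was in Oas2 (0.27 ± 0.04, log2 ± SE).

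**Figure D2:**
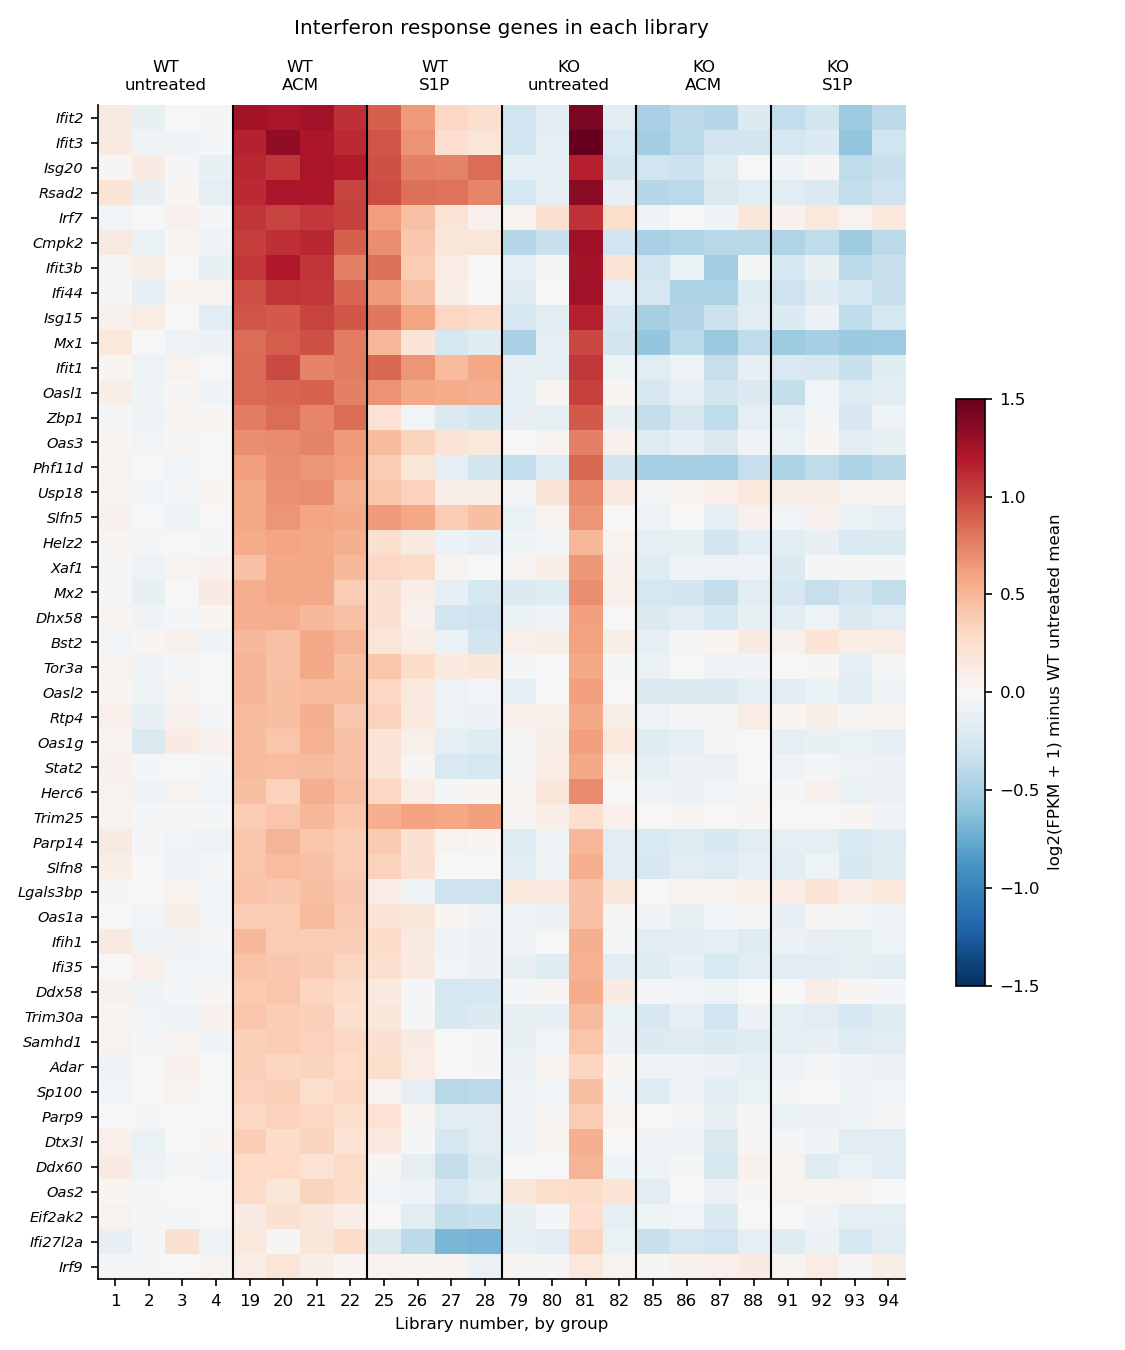
Log2(FPKM + 1) of each of 47 members (rows, ordered by the change with ACM in WT cells) in each of 24 libraries (columns, by group), minus the mean of the 4 WT untreated libraries; red is higher and blue lower. WT ACM columns are red in nearly all rows, WT S1P columns 25 and 26 are redder than 27 and 28, and column 81 differs from its 3 knockout untreated neighbours.

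Of the transcription factors, Irf7 and Stat2 rose. Irf7 was at 51.4, 52.8, 55.1 and 51.96 FPKM in WT untreated libraries and at 112, 108, 111 and 108 FPKM with ACM. The groups were far apart, and the log2 change was 1.05 ± 0.14 (adjusted p = 2.99e-05). Stat2 was at 47.1, 44.7, 44.9 and 44.1 FPKM untreated and 62.98, 62.6, 63.2 and 61.7 FPKM with ACM, a log2 change of 0.46 ± 0.10 (adjusted p = 0.00149). Irf9, which acts in the same DNA-binding complex as Stat2, was at 17.5, 17.5, 17.8 and 18.6 FPKM untreated and 19.3, 20.3, 19.2 and 18.3 FPKM with ACM. Those ranges overlapped, and its log2 change of 0.11 ± 0.04 did not pass (adjusted p = 0.0687). It passed on leaving out the library labelled KO untreated 81 (adjusted p = 0.0425), WT ACM library 22 or WT S1P library 28, and with median scaling. Under TPM scaling its change was -0.01.

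The 4 Ifit members all rose, with log2 changes from 0.84 to 1.20. Some proteins of this family bind foreign RNA and block its translation. Ifit2 was at 45.8, 38.4, 41.8 and 40.7 FPKM untreated and 99.8, 98.4, 101 and 89.99 FPKM with ACM. Every treated library was well above every untreated one, and the log2 change was 1.20 ± 0.24 (adjusted p = 0.00104). Ifit3 went from 44.02, 38.5, 38.3 and 38.96 FPKM to 89.9, 101, 93.8 and 87.8 FPKM (log2 change 1.20 ± 0.26). Ifit3b was lower in level, at 4.16, 4.38, 4.11 and 3.68 FPKM untreated and 9.60, 10.6, 9.68 and 7.58 FPKM with ACM (1.02 ± 0.21). These last genes are near copies: 51.2% of the 50-base words of Ifit3 transcripts also occur in Ifit3b, so how the reads were divided between them is uncertain.

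All 6 oligoadenylate synthetase members rose. Oligoadenylate synthetases are activated by double-stranded RNA and make the signal that switches on RNase L. Oas3 was at 49.9, 47.4, 49.6 and 48.4 FPKM untreated and 79.6, 80.5, 82.2 and 76.3 FPKM with ACM (log2 change 0.70 ± 0.11, adjusted p = 0.000116). Oas1a was at 79.6, 77.7, 85.4 and 78.01 FPKM untreated and 104, 105, 112 and 105 FPKM with ACM (0.40 ± 0.08). Neither gene's groups overlapped. Oas1a shares 57.6% of its 50-base words with Oas1g, which makes their separate values uncertain. Oas2 was at 24.6, 23.5, 23.9 and 24.2 FPKM untreated and 29.6, 27.5, 30.5 and 29.3 FPKM with ACM, the smallest rise of the family.

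The 6 members grouped here as the ISG15 system and ubiquitin ligases, with Rtp4 placed beside them, rose by log2 changes of 0.35 to 0.95. Isg15 was at 97.4, 101, 92.8 and 83.2 FPKM untreated and 181, 178, 189 and 179.6 FPKM with ACM (0.95 ± 0.21, adjusted p = 0.00211). Usp18, which removes ISG15 from proteins and restrains the receptor, rose by 0.62 ± 0.10. Rtp4, a chaperone of membrane receptors, was at 66.8, 58.9, 66.3 and 62.5 FPKM untreated and 88.9, 87.4, 92.2 and 84.7 FPKM with ACM (0.47 ± 0.09). Trim25, the ligase that activates RIG-I, was at 59.2, 56.6, 56.4 and 56.2 FPKM untreated and 74.8, 76.5, 80.8 and 76.6 FPKM with ACM. Its spread was small, and its log2 change of 0.43 ± 0.04 had the smallest adjusted p of the 47 members (1.06e-07).

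Of the 7 membrane, trafficking and GTPase effectors, 6 rose. Rsad2 encodes viperin, which makes a chain-terminating nucleotide. It was at 33.1, 26.3, 29.2 and 25.8 FPKM untreated and 63.01, 68.1, 67.5 and 58.5 FPKM with ACM (log2 change 1.15 ± 0.22, adjusted p = 0.000675). Bst2 was at 416, 435, 445 and 412 FPKM untreated and 598, 578, 632 and 607 FPKM with ACM (0.50 ± 0.10). Both genes had groups that did not overlap. Lgals3bp was at 250.3, 257, 265 and 249 FPKM untreated and 344, 337, 351 and 338 FPKM with ACM (0.42 ± 0.07). Mx1, a GTPase that traps viral nucleocapsids, rose by 0.87 ± 0.21. Ifi27l2a was the exception. Its values were 929, 989.7, 1181 and 956 FPKM untreated and 1131, 1024, 1135 and 1220 FPKM with ACM, with groups that overlapped and a log2 change of 0.16 ± 0.11 (adjusted p = 0.32).

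Among the 7 nucleotide and RNA enzymes, 6 rose. Isg20, an exonuclease, rose by 1.15 ± 0.20, and Cmpk2, a mitochondrial nucleotide kinase encoded beside Rsad2, rose by 1.04 ± 0.23. Slfn5 was at 41.05, 39.1, 37.3 and 39.1 FPKM untreated and 59.1, 62.5, 59.3 and 58.3 FPKM with ACM (0.60 ± 0.11). Samhd1, which depletes deoxynucleotides, was at 41.4, 39.1, 40.9 and 37.9 FPKM untreated and 51.3, 51.95, 50.8 and 49.8 FPKM with ACM (0.35 ± 0.08). Each of these treated groups lay above its untreated group. Eif2ak2, the kinase PKR that stops translation on sensing double-stranded RNA, was at 30.4, 28.8, 28.9 and 29.2 FPKM untreated and 32.2, 34.7, 33.01 and 31.6 FPKM with ACM. Its log2 change was 0.16 ± 0.08 and did not pass (adjusted p = 0.145).

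All 5 sensors rose. Zbp1, a sensor of left-handed nucleic acid, was at 15.96, 15.6, 16.7 and 16.5 FPKM untreated and 28.2, 29.8, 27.6 and 29.8 FPKM with ACM (log2 change 0.80 ± 0.16, adjusted p = 0.00108). Dhx58, which encodes LGP2, was at 33.4, 31.2, 31.6 and 33.1 FPKM untreated and 47.7, 47.4, 45.7 and 44.1 FPKM with ACM (0.50 ± 0.12). Ddx58, which encodes RIG-I, was at 28.9, 26.3, 27.1 and 27.8 FPKM untreated and 36.3, 37.1, 34.6 and 33.5 FPKM with ACM (0.35 ± 0.09). The 9 ADP-ribosylation and nuclear proteins also rose. Parp14 was at 46.4, 41.3, 40.99 and 40.02 FPKM untreated and 56.4, 60.2, 56.6 and 54.7 FPKM with ACM (0.43 ± 0.10). Sp100, a component of nuclear bodies, was at 29.8, 30.5, 31.8 and 30.9 FPKM untreated and 39.4, 39.8, 37.01 and 38.3 FPKM with ACM (0.32 ± 0.09). Ifi44 was low, at 5.24, 4.68, 5.42 and 5.39 FPKM untreated and 11.1, 11.9, 11.9 and 10.3 FPKM with ACM (0.99 ± 0.21). Parp9 and Dtx3l partly overlap on opposite strands, over 458 bases of exon, and without strand their reads there cannot be told apart. Under TPM scaling, which moved the median of all kept genes by -0.11 in this comparison, 37 members rose, and the calls of Oas2, Ddx58, Parp9, Dtx3l, Trim30a, Sp100 and Ddx60 were lost.

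S1P changed fewer members in WT cells, and in both directions. With all libraries, 9 of 47 rose and 4 fell (limma, adjusted p under 0.05), where 25.2% of kept genes were called higher and 27.2% lower. With all libraries both counts were thus below the share over all kept genes. The median log2 change was 0.08. Without the library labelled KO untreated 81, which is in neither group but widens the shared spread, 18 members rose and 6 fell, beside 26.3% and 28% of kept genes. The count that rose was then above the share of kept genes, and the count that fell was still below it. For 14 members every S1P library was above every untreated one, and for 2 every one was below, where the shares of kept genes were 21.9% and 23.3%.

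The 9 that rose were Rsad2, Isg20, Ifit1, Trim25, Oasl1, Slfn5, Isg15, Oas3 and Tor3a. Trim25 was at 83.8, 87.4, 85.7 and 88.3 FPKM with S1P, beside 59.2, 56.6, 56.4 and 56.2 FPKM untreated. All 4 libraries were alike and far above the untreated ones (log2 change 0.59 ± 0.04, adjusted p = 5.31e-11), and library 25 was the lowest of the 4 for this gene alone. Rsad2 was at 57.3, 51.4, 50.7 and 47.8 FPKM with S1P, in libraries 25 to 28 in that order (0.84 ± 0.22, adjusted p = 0.0024), and Slfn5 at 61.3, 58.8, 51.4 and 53.8 FPKM (0.51 ± 0.11, adjusted p = 0.000294). Both lay above their untreated groups in all 4 libraries. Isg20 rose by 0.82 ± 0.20, Ifit1 by 0.64 ± 0.17 and Oasl1, a negative regulator of IRF7 translation, by 0.59 ± 0.15.

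For other members the 4 S1P libraries were spread widely. Ifit2 was at 78.3, 65.1, 51.7 and 49.1 FPKM in libraries 25 to 28 (log2 change 0.52 ± 0.24, adjusted p = 0.0738). With the library labelled KO untreated 81 left out it was 0.52 ± 0.10 (adjusted p = 0.000232). Ifit3 was at 77.5, 64.2, 47.7 and 45.5 FPKM (0.51 ± 0.26, adjusted p = 0.1), and Irf7 at 81.8, 71.8, 61.02 and 55.2 FPKM (0.33 ± 0.14, adjusted p = 0.059). In each, library 25 was highest and 28 lowest. Both passed on leaving out the library labelled KO untreated 81, Ifit3 with 0.51 ± 0.12 (adjusted p = 0.0011) and Irf7 with 0.33 ± 0.08 (adjusted p = 0.00188). Isg15 was at 162, 142, 116 and 114 FPKM (0.50 ± 0.21, adjusted p = 0.0487), and its call was lost in 18 of the 24 fits that left out 1 library. Oas3 was at 67.99, 61.7, 56.4 and 54.6 FPKM (0.29 ± 0.11, adjusted p = 0.0295). Its call was lost without WT untreated library 2 or 4 or WT S1P library 25 or 26.

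The 4 members that fell with S1P were Ifi27l2a, Sp100, Eif2ak2 and Oas2. Ifi27l2a was at 872, 769.5, 627 and 623 FPKM, all below the untreated libraries (log2 change -0.50 ± 0.11, adjusted p = 0.000453). Sp100 was at 31.6, 28.2, 22.8 and 23.1 FPKM and Eif2ak2 at 29.5, 26.1, 22.6 and 23.04 FPKM. Their ranges reached into the untreated ones through library 25, and the log2 changes were -0.22 ± 0.09 (adjusted p = 0.0478) and -0.21 ± 0.08 (adjusted p = 0.0229). Oas2 was at 23.4, 23.1, 20.1 and 21.3 FPKM (-0.13 ± 0.04, adjusted p = 0.0204). With median scaling 1 member fell in place of 4, and likewise without WT untreated library 1, WT S1P library 27 or WT S1P library 28. Stat2 (51.99, 45.7, 38.3 and 37.6 FPKM, log2 change -0.07 ± 0.10) and Irf9 (18.5, 18.2, 18.4 and 16.5 FPKM, 0.00 ± 0.04) did not pass.

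The remaining members followed gene by gene showed the same spread among the S1P libraries, given here in the order 25 to 28. Ifit3b was at 8.03, 5.63, 4.46 and 4.08 FPKM, Ifi44 at 8.62, 7.35, 5.64 and 5.17 FPKM and Zbp1 at 18.98, 15.7, 13.8 and 13.2 FPKM. Among the sensors, Dhx58 was at 38.1, 33.98, 26.3 and 25.96 FPKM and Ddx58 at 30.6, 26.8, 22.8 and 22.95 FPKM. In all 5 genes library 25 was above every untreated library, and libraries 27 and 28 were near or below the untreated values. Rtp4 was at 80.8, 70.2, 60.3 and 59.9 FPKM, Oas1a at 91.9, 90.3, 81.99 and 76.96 FPKM and Bst2 at 486, 460.3, 398 and 351 FPKM. Samhd1 was at 46.7, 43.4, 39.999 and 39.2 FPKM and Parp14 at 55.4, 49.7, 43.8 and 43.1 FPKM. None of these 10 members passed with all libraries, with log2 changes from -0.10 (Ddx58) to 0.33 (Ifit3b). Ifi44 (0.29 ± 0.10, adjusted p = 0.0186) and Parp14 (0.18 ± 0.06, adjusted p = 0.0168) passed on leaving out the library labelled KO untreated 81. Lgals3bp was at 275, 242, 205 and 206 FPKM, with library 25 above every untreated value and the 3 others below them all (-0.15 ± 0.07, adjusted p = 0.0854). It passed as lower without KO untreated library 81 (adjusted p = 0.0448), without WT S1P library 25 and under TPM scaling.

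**Figure D3:**
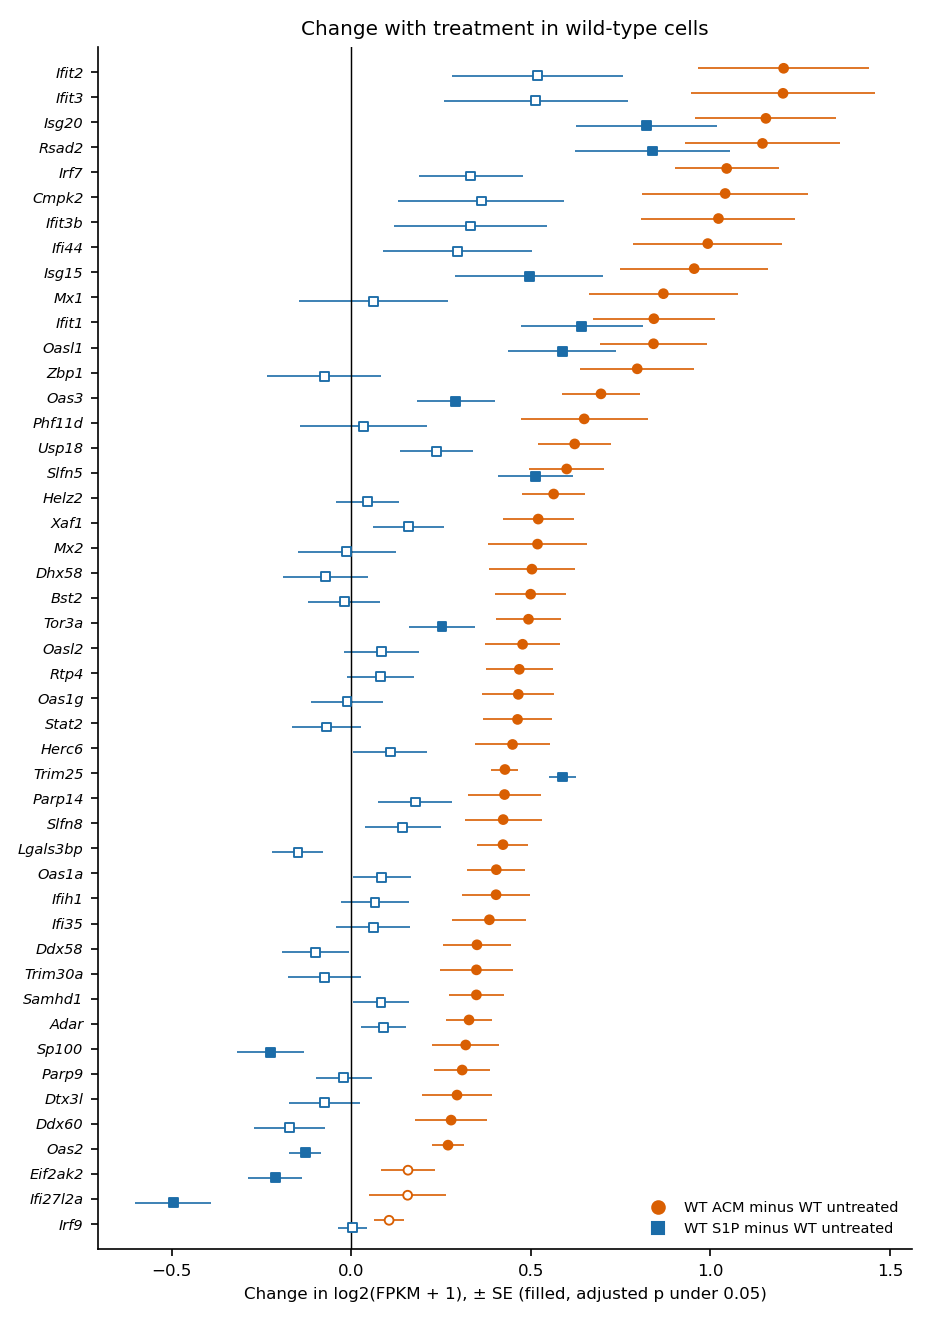
Change in log2(FPKM + 1) from WT untreated cells with ACM (orange circles) and with S1P (blue squares) for 47 members, with SE bars from the fit over all libraries; filled symbols are past an adjusted p of 0.05. With ACM 44 members are filled, all to the right of 0, while with S1P 9 are filled to the right and 4 to the left, and Trim25 has its blue symbol to the right of the orange one.

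Compared directly, ACM gave higher levels than S1P for 39 of 47 members and a lower level for 1, where 23.0% and 18.5% of kept genes were called (limma, adjusted p under 0.05; median log2 difference 0.40). The count of higher members was 45 on leaving out the library labelled KO untreated 81, beside 24.3% of kept genes. Zbp1 had the largest difference, with 28.2, 29.8, 27.6 and 29.8 FPKM in ACM and 18.98, 15.7, 13.8 and 13.2 FPKM in S1P libraries (log2 difference 0.87 ± 0.16, adjusted p = 0.000143). Those groups did not overlap. Ifi27l2a (0.65 ± 0.11) and Lgals3bp (0.57 ± 0.07) were also higher with ACM. The 1 member that was lower with ACM was Trim25 (-0.16 ± 0.04, adjusted p = 0.00171). Rsad2 (0.31 ± 0.22, adjusted p = 0.277), Ifit1 (0.20 ± 0.17, adjusted p = 0.373) and Slfn5 (0.09 ± 0.11, adjusted p = 0.545), which S1P had raised, did not pass in this comparison. Of these, Rsad2 and Ifit1 passed without the library labelled KO untreated 81 (0.31 ± 0.08 and 0.20 ± 0.07), and Slfn5 did not. ACM and S1P were each compared with the same untreated libraries, so the changes above share their controls.

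In Trem2(-/-) cells no member was called higher with either treatment. With ACM, 0 of 47 members were called higher and 1 lower than in knockout untreated cells (limma), where 0.0% and 0.00879% of kept genes were called. Oas2 was that member and the only gene of 11377 called lower. The median log2 change of the members was -0.27, and 36 of 47 had an unadjusted p under 0.05. The shares of kept genes given here are for adjusted calls, and the share at an unadjusted p under 0.05 was not counted. Without the library labelled KO untreated 81 the median was -0.12, 9 had an unadjusted p under 0.05, and 0 were called higher and 1 lower, where 0.0176% and 0.0264% of kept genes were called. With S1P, 0 of 47 were called in either direction (0.0% and 0.00879% of kept genes), with a median of -0.22 and 29 at an unadjusted p under 0.05, and a median of -0.08 and 7 without that library, where again 0 of 47 were called (0.0264% of kept genes higher and 0.158% lower). ACM against S1P gave 0 of 47 calls in knockout cells (0.0352% of kept genes higher and 0.0% lower), a median log2 difference of -0.03 and 1 member at an unadjusted p under 0.05.

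Oas2 was at 27.2, 29.01, 29.3 and 27.8 FPKM in knockout untreated libraries 79, 80, 81 and 82. It was at 21.4, 23.9, 22.6 and 24.4 FPKM with ACM and 25.1, 24.9, 24.9 and 24.1 FPKM with S1P. The treated groups lay below the untreated one, and the library labelled KO untreated 81 was close to the others for this gene. Its log2 change with ACM was -0.27 ± 0.05 without that library (adjusted p = 0.0357), and the call was lost on leaving out knockout untreated library 80 or 82 or knockout ACM library 85 or 87, and under TPM scaling. Other members are given here to show how far the libraries lay from those of WT cells. Irf7 was at 54.8, 62.5, 113 and 63.6 FPKM in libraries 79 to 82, 50.5, 52.6, 50.7 and 60.1 FPKM with ACM and 55.1, 58.97, 54.7 and 58.96 FPKM with S1P. Its 3 lower untreated values overlapped the treated ones. Ifit2 was at 33.7, 36.9, 112 and 37.002 FPKM untreated, 29.5, 31.4, 30.7 and 35.9 FPKM with ACM and 31.97, 34.2, 28.1 and 31.4 FPKM with S1P. Rsad2 was at 23.6, 25.9, 74.1 and 26.1 FPKM untreated, 20.99, 21.2, 24.4 and 25.3 FPKM with ACM and 25.1, 24.4, 21.99 and 22.8 FPKM with S1P. In both genes, 1 of the 4 untreated values was far above all others, and the rest were close to each other. Without it, the log2 changes with ACM were -0.17 ± 0.11 for Ifit2 and -0.13 ± 0.08 for Rsad2, where WT cells had 1.20 and 1.15.

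The other knockout values are given untreated (libraries 79 to 82 in order), with ACM and with S1P. For Ifit3 they were 32.2, 36.3, 114 and 34.02 FPKM, 27.5, 30.01, 32.5 and 32.8 FPKM and 33.2, 34.3, 26.2 and 32.3 FPKM. Isg15 was at 78.2, 82.7, 211 and 78.9 FPKM, 65.8, 68.6, 74.7 and 83.6 FPKM and 80.997, 87.4, 71.2 and 77.5 FPKM. Zbp1 was at 14.8, 14.5, 31.5 and 14.9 FPKM, 12.4, 13.6, 12.2 and 14.5 FPKM and 14.6, 16.01, 13.5 and 15.3 FPKM. In these 3 genes the third untreated value, from library 81, stood alone above the other 11. Ifit3b was at 3.64, 4.03, 11.1 and 4.84 FPKM, 3.13, 3.75, 2.55 and 3.96 FPKM and 3.26, 3.72, 2.82 and 3.01 FPKM. Ifi44 was at 4.39, 5.18, 13.8 and 4.62 FPKM, 4.17, 3.43, 3.44 and 4.39 FPKM and 3.998, 4.39, 4.14 and 3.92 FPKM. Oas3 was at 48.98, 50.3, 83.05 and 51.2 FPKM, 42.7, 44.9, 41.9 and 46.9 FPKM and 45.6, 49.9, 43.4 and 45.3 FPKM. Library 81 again stood above all others, and the Oas3 values with ACM were below those of the 3 other untreated libraries.

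Members with smaller changes in WT cells showed the same picture. Stat2 was at 44.1, 48.9, 67.3 and 46.7 FPKM untreated, 40.9, 42.5, 42.1 and 44.9 FPKM with ACM and 42.7, 44.5, 42.7 and 42.5 FPKM with S1P. Dhx58 was at 30.2, 31.2, 50.1 and 32.5 FPKM, 27.97, 28.9, 27.02 and 29.8 FPKM and 28.95, 30.7, 27.6 and 28.7 FPKM in that order, and Ddx58 was at 27.2, 27.97, 41.04 and 30.03 FPKM, 27.1, 26.6, 26.1 and 27.7 FPKM and 27.5, 29.5, 28.2 and 27.3 FPKM. In all 3 the treated libraries were within or below the range of the 3 lower untreated ones. Rtp4 was at 66.97, 66.8, 94.7 and 67.8 FPKM, 59.98, 62.9, 62.99 and 68.9 FPKM and 64.6, 67.5, 64.1 and 65.4 FPKM, and Oas1a at 76.4, 75.4, 109 and 81.3 FPKM, 77.1, 73.8, 77.8 and 78.6 FPKM and 73.7, 80.96, 78.6 and 76.5 FPKM. Parp14 was at 36.7, 40.2, 59.7 and 37.7 FPKM, 35.7, 36.7, 35.5 and 37.7 FPKM and 38.1, 38.1, 35.8 and 36.6 FPKM, and Sp100 at 29.1, 29.9, 42.4 and 30.4 FPKM, 26.8, 29.2, 27.1 and 28.6 FPKM and 30.3, 30.5, 29.4 and 29.9 FPKM. Apart from library 81 these ranges overlapped. Slfn5 was at 36.5, 40.5, 62.6 and 39.3 FPKM, 36.9, 38.999, 35.4 and 40.9 FPKM and 37.99, 40.8, 36.5 and 35.6 FPKM, and Samhd1 at 36.8, 38.8, 53.6 and 37.4 FPKM, 34.4, 34.8, 34.5 and 34.9 FPKM and 35.8, 36.5, 34.7 and 35.4 FPKM. Eif2ak2 was at 27.1, 28.8, 35.1 and 26.6 FPKM, 27.9, 28.5, 25.3 and 29.1 FPKM and 29.1, 28.2, 26.7 and 26.4 FPKM. For Samhd1 all 8 treated values were below the untreated ones, and for Slfn5 and Eif2ak2 they were mixed with the 3 lower untreated values.

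For the most abundant members, library 81 was also the highest of the 12 libraries labelled knockout. Ifi27l2a was at 928, 904, 1265 and 943 FPKM untreated, 799, 846, 823 and 913 FPKM with ACM and 890.3, 950.2, 841 and 906 FPKM with S1P. Bst2 was at 451, 452, 651 and 454 FPKM, 389.9, 421, 437 and 467 FPKM and 446, 494, 462 and 462 FPKM. Lgals3bp was at 285, 283, 347 and 287 FPKM, 256, 265, 265 and 269 FPKM and 277, 294, 276 and 285 FPKM. The gap was smallest for Trim25 and Irf9 among the genes followed here besides Oas2. Trim25 was at 57.99, 61.4, 68.3 and 59.997 FPKM untreated, 56.9, 58.7, 57.5 and 58.1 FPKM with ACM and 57.1, 56.8, 58.1 and 54.9 FPKM with S1P. Irf9 was at 18.1, 18.1, 20.1 and 18.6 FPKM, 18.04, 18.6, 18.9 and 19.5 FPKM and 18.3, 19.4, 18.02 and 18.97 FPKM. Without library 81, neither gene's change passed with either treatment.

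**Figure D4:**
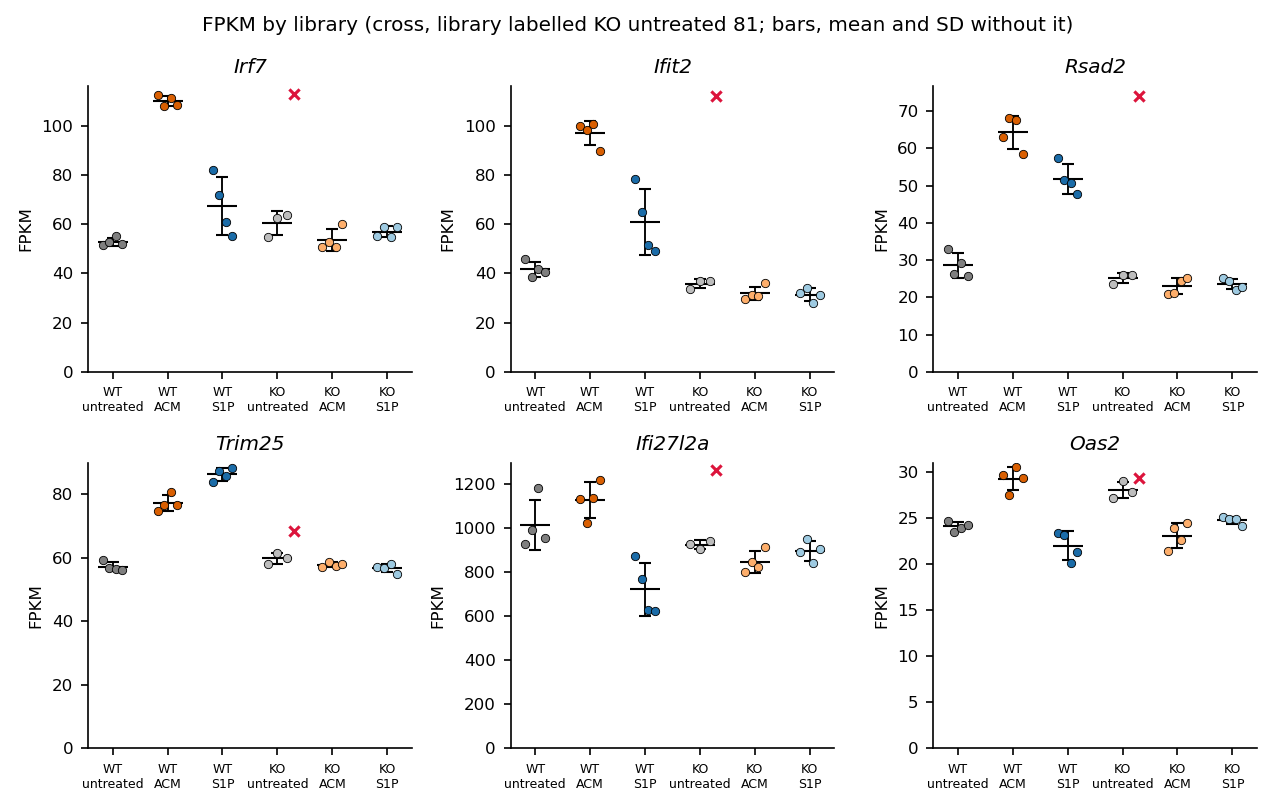
FPKM of Irf7, Ifit2, Rsad2, Trim25, Ifi27l2a and Oas2 in each library by group (points), with the mean and SD drawn without the library labelled KO untreated 81, which is a red cross. Irf7, Ifit2 and Rsad2 are highest in WT ACM and in the crossed library, Trim25 is highest in WT S1P, Ifi27l2a is lowest in WT S1P, and Oas2 of the knockout untreated group lies above that of the other knockout groups.

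Few members were called different between the genotypes before treatment, as was so for all kept genes. With all libraries 1 of 47 members was higher in knockout untreated cells and 0 were lower (limma, adjusted p under 0.05; 10 had an unadjusted p under 0.05), where 1.26% and 1.21% of kept genes were called. The median log2 difference was 0.13, and -0.03 on leaving out the library labelled KO untreated 81. Without it, 1 member was higher and 1 lower, beside 4.13% and 4.03% of kept genes. Oas2 was higher (0.21 ± 0.05, adjusted p = 0.00781), with 24.6, 23.5, 23.9 and 24.2 FPKM in WT libraries and 27.2, 29.0 and 27.8 FPKM in the knockout libraries. Cmpk2 was lower (-0.35 ± 0.09, adjusted p = 0.0184), at 24.2, 20.4, 22.5 and 21.2 FPKM in WT libraries and 16.1, 17.3 and 17.9 FPKM in the knockout libraries. Neither gene's groups overlapped. On leaving out the library labelled KO untreated 81, every knockout library was below every WT library for 10 members and above for 3. The share of kept genes with such ranges is not given here. With all libraries the Oas2 call was lost under TPM scaling (adjusted p = 0.15). Phf11d (-0.28 ± 0.10, adjusted p = 0.0903) and Mx1 (-0.30 ± 0.13, adjusted p = 0.161) did not pass.

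With ACM, knockout cells had lower levels of 46 of 47 members and a higher level of 0 (limma, adjusted p under 0.05; 46 had an unadjusted p under 0.05), where 15.5% of kept genes were called lower and 12.5% higher. The median log2 difference was -0.57. For the same number of members, 46, the knockout and WT ranges did not overlap, which in this direction was so for 17.3% of kept genes. Irf9 was the exception to the calls (-0.04 ± 0.04, adjusted p = 0.56), at 18.04, 18.6, 18.9 and 19.5 FPKM in knockout and 19.3, 20.3, 19.2 and 18.3 FPKM in WT libraries. The largest difference was in Ifit2 (-1.58 ± 0.24, adjusted p = 3.86e-05), with 29.5, 31.4, 30.7 and 35.9 FPKM in knockout and 99.8, 98.4, 101 and 89.99 FPKM in WT libraries. Ifit3 (27.5, 30.01, 32.5 and 32.8 FPKM in knockout libraries, log2 difference -1.57 ± 0.26), Cmpk2 (-1.49 ± 0.23), Rsad2 (-1.45 ± 0.22) and Isg20 (-1.36 ± 0.20) followed. Isg15 was at 65.8, 68.6, 74.7 and 83.6 FPKM in knockout libraries (-1.31 ± 0.21), and Zbp1 at 12.4, 13.6, 12.2 and 14.5 FPKM (-1.08 ± 0.16). Each was below the lowest WT ACM value. Even Ifi27l2a and Eif2ak2, which ACM had not raised in WT cells, were lower in knockout ACM libraries, by -0.41 ± 0.11 and -0.24 ± 0.08. The Eif2ak2 call was lost without WT ACM library 20 or knockout ACM library 87.

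With S1P, 20 of 47 members were lower in knockout cells and 3 were higher (limma, adjusted p under 0.05), where 25.4% of kept genes were called lower and 26.9% higher. On leaving out the library labelled KO untreated 81 the counts were 29 (26.3% of kept genes) and 4 (27.6%). The median log2 difference was -0.21. On the FPKM + 1 scale Rsad2 had the largest difference (-1.10 ± 0.22, adjusted p = 0.000176). It was at 25.1, 24.4, 21.99 and 22.8 FPKM in knockout and 57.3, 51.4, 50.7 and 47.8 FPKM in WT libraries. Trim25, at 57.1, 56.8, 58.1 and 54.9 FPKM in knockout and 83.8, 87.4, 85.7 and 88.3 FPKM in WT libraries, had the smallest adjusted p (-0.60 ± 0.04, 5.15e-11). Slfn5 was at 37.99, 40.8, 36.5 and 35.6 FPKM in knockout libraries (-0.56 ± 0.11). The 3 that were higher in knockout cells were Ifi27l2a, Lgals3bp and Oas2. Ifi27l2a was at 890.3, 950.2, 841 and 906 FPKM in knockout and 872, 769.5, 627 and 623 FPKM in WT libraries (0.32 ± 0.11, adjusted p = 0.0137). WT S1P library 25 overlapped the knockout range, and the call was lost without WT S1P library 27 or 28. Lgals3bp was at 277, 294, 276 and 285 FPKM in knockout and 275, 242, 205 and 206 FPKM in WT libraries (0.30 ± 0.07, adjusted p = 0.00131), and Oas2 differed by 0.17 ± 0.04 (adjusted p = 0.00359), a call that was lost under TPM scaling (adjusted p = 0.14).

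**Figure D5:**
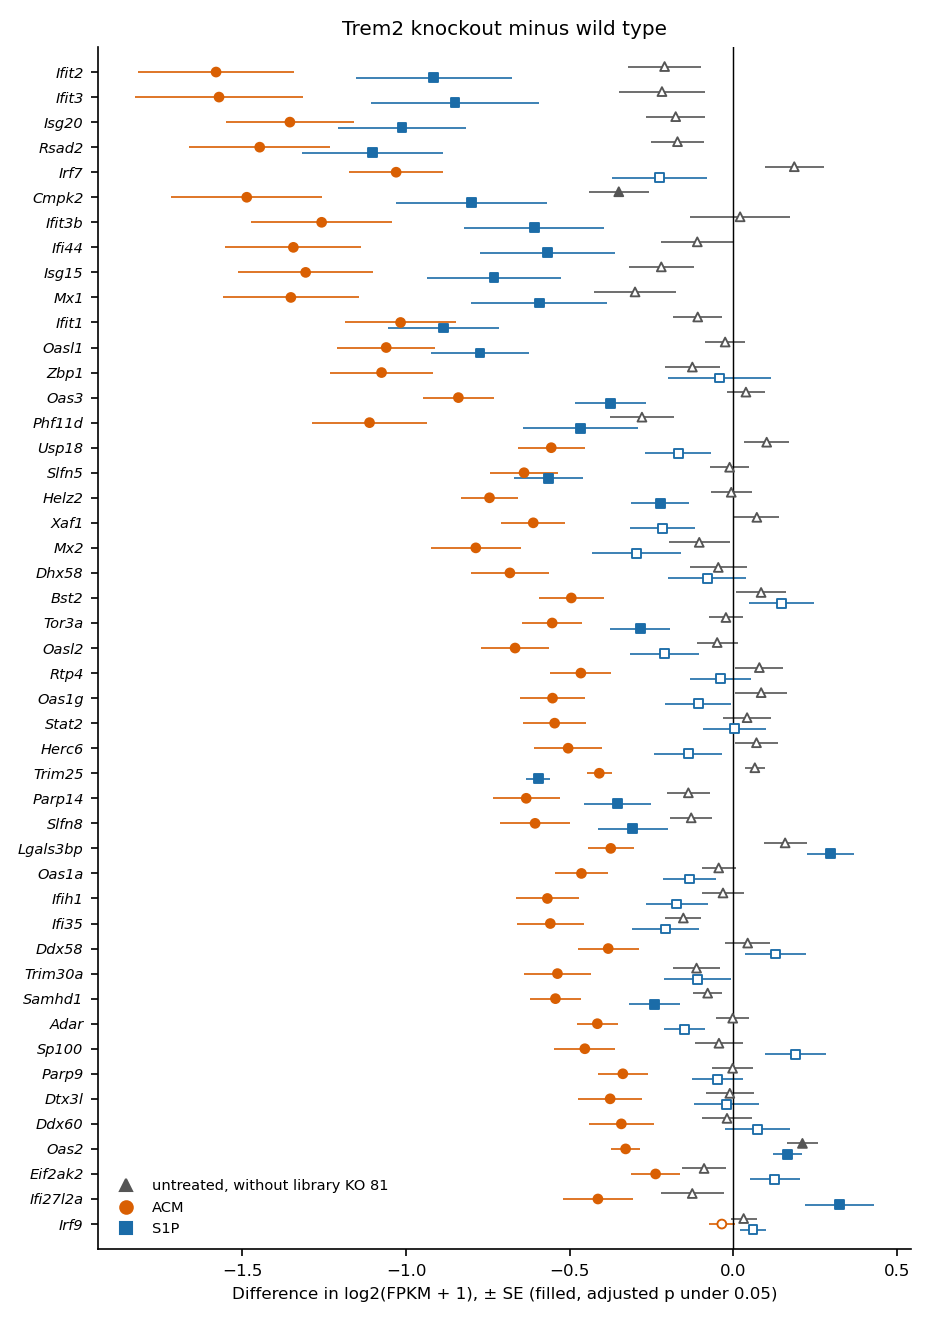
Difference in log2(FPKM + 1), knockout minus WT, for 47 members in untreated cells, leaving out the library labelled KO untreated 81 (grey triangles), with ACM (orange circles) and with S1P (blue squares), with SE bars; filled symbols are past an adjusted p of 0.05. With ACM 46 members are filled, all left of 0. Of the triangles only Oas2 (right) and Cmpk2 (left) are filled, and the blue symbols lie on both sides, with 20 filled to the left and 3 to the right. The S1P counts are from the fit over all libraries, and the triangles from the fit without the library labelled KO untreated 81.

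The change with ACM itself differed between genotypes for 44 of 47 members, all 44 with a lower change in knockout cells and 0 with a higher one (limma interaction term, adjusted p under 0.05; 46 had an unadjusted p under 0.05), where 9.64% of kept genes were called lower and 7.41% higher. With the library labelled KO untreated 81 left out the count was again 44 (8.75% of kept genes), with a median log2 difference of changes of -0.59 in place of -0.73. Ifit3 had the largest difference of changes, -1.78 ± 0.36 (adjusted p = 0.00183), and without that library -1.35 ± 0.18. Irf7 differed by -1.44 ± 0.20 (adjusted p = 8.24e-05), and by -1.22 ± 0.12 without it. Irf9, Eif2ak2 and Ifi27l2a did not pass with or without it. For S1P the change was lower in knockout cells for 22 of 47 members (19.4% of kept genes) and higher for 0 (22.5%), with 28 at an unadjusted p under 0.05. Without the library labelled KO untreated 81 these counts were 19 (19.2% of kept genes) and 1 (22.3%), the 1 being Ifi27l2a (0.45 ± 0.13, adjusted p = 0.00886). On the FPKM + 1 scale Rsad2 differed most for S1P (-1.31 ± 0.31, adjusted p = 0.00142, and -0.93 ± 0.11 without that library). Trim25 differed by -0.71 ± 0.05 (adjusted p = 2.47e-09) and -0.66 ± 0.04 without it.

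Of 41 other genes of the pathway, 32 were kept and tested, and in WT cells 14 rose and 3 fell with ACM, where 12.2% of all kept genes were called higher and 9.85% lower. The interferon genes themselves were at or near 0. Ifnb1, which encodes interferon beta, had 0 to 2 recovered reads in a library, with 2, 2, 2 and 0 reads in the WT ACM libraries, and Ifna1, Ifna2, Ifna4, Ifna5 and Ifnab were listed at 0 in all 24. A count of 0 in a library allows up to 3 reads, counting error alone, so differences in interferon transcripts were not detectable at this depth. The receptor genes Ifnar1 (log2 change 0.01 ± 0.04) and Ifnar2 (0.10 ± 0.05) did not pass with ACM. Irf1, an interferon regulatory factor, rose by 0.36 ± 0.09. Irf5, a factor downstream of Toll-like receptors, rose by 0.49 ± 0.06, and Ikbke, a kinase that phosphorylates interferon regulatory factors, by 0.41 ± 0.05. Socs3, an inhibitor of cytokine receptors present at 1.49 FPKM or less in WT cells, fell by 0.51 on the log2 scale. Irf3 (-0.13 ± 0.05) and Tbk1 (0.00 ± 0.04) did not pass.

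With S1P, 6 of those 32 genes rose and 11 fell in WT cells, where 25.2% of all kept genes were called higher and 27.2% lower, so these counts are near the background. Irf5 rose by 0.59 ± 0.06 and Ticam1, the TRIF adaptor of Tlr3 and Tlr4, by 0.71 ± 0.07. Tlr7 (-0.79 ± 0.10), Cgas (-0.45 ± 0.08), Tmem173, which encodes STING (-0.22 ± 0.04), and Ifnar1 (-0.14 ± 0.04) fell. Ifnar2 (0.00 ± 0.05) and Irf1 (-0.01 ± 0.09) did not pass. In knockout cells 0 of 32 were called with either treatment (limma). With ACM, 17 of the 32 were lower in knockout than in WT cells and 1 was higher, where 15.5% and 12.5% of all kept genes were called. Irf5 (-0.63 ± 0.06), Ikbke (-0.59 ± 0.05) and Irf1 (-0.50 ± 0.09) were among the lower, and Socs3 (0.86 ± 0.13) was the higher one. With S1P, 11 were higher and 8 lower in knockout cells, near the 26.9% and 25.4% of all kept genes, among them Tlr7 (0.78 ± 0.10) and Ticam1 (-0.80 ± 0.07).

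Of 8 macrophage markers, Lyz2, which encodes lysozyme, made up most of the summed FPKM. This sum differed between the groups. It was 7831 to 8154 in WT untreated, 6454 to 7109 in WT ACM and 4726 to 6370 in WT S1P libraries. It was 4974 to 5331 in knockout ACM and 5056 to 5294 in knockout S1P libraries. In knockout untreated libraries it was 4746 to 6642, and the highest, 6642, was that of the library labelled KO untreated 81. All 8 were kept in testing, and the highest single value, 5917 FPKM, was that of Lyz2. The markers did not move together. With ACM in WT cells Lyz2 (-0.37 ± 0.13) and Itgam (-0.30 ± 0.10) fell. Cd68 (0.26 ± 0.04) and Fcgr1 (0.53 ± 0.16) rose, and the others did not pass. With S1P, Lyz2, Itgam, Adgre1, Csf1r and Mertk fell and Cd68 rose, while Fcgr1 and Tyrobp did not pass. With all libraries, knockout untreated cells had lower Lyz2 (-0.94 ± 0.13) and higher Mertk (0.39 ± 0.07), and the others did not pass. Without the library labelled KO untreated 81, Fcgr1 was also lower (-0.32 ± 0.09, adjusted p = 0.0322, limma). Markers of plasmacytoid dendritic cells, which make much type I interferon, summed to 4.13 to 4.76 FPKM in WT untreated, 7.13 to 9.21 FPKM in WT ACM and 20.3 to 34.9 FPKM in WT S1P libraries. Of the 7, only Cox6a2 and Tcf4 were kept, and the highest single value, 32.9 FPKM, was that of Cox6a2. Siglech, a defining marker, was listed at 0 in all but 1 library, where it was 0.015 FPKM. Granulocyte markers summed to 6.64 to 9.41 FPKM in WT untreated, 5.54 to 7.85 FPKM in WT ACM, 7.44 to 10.9 FPKM in WT S1P, 22.9 to 23.4 FPKM in knockout ACM and 20.5 to 23.6 FPKM in knockout S1P libraries. In knockout untreated libraries they summed to 7.00 to 21.1 FPKM, and the lowest, 7.00 FPKM, was that of the library labelled KO untreated 81. Monocyte markers summed to 25.01 to 26.7 FPKM in WT untreated, 21.8 to 23.1 FPKM in WT ACM and 9.68 to 18.3 FPKM in WT S1P libraries. Hepatocyte markers, of interest because ACM comes from hepatocytes, summed to at most 0.273 FPKM in any library. The part of these markers in the results was not tested. In bulk RNA, fewer responding cells and less transcript per cell cannot be told apart.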

How the data were processed

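Messenger RNA captured with oligo(dT), per the labels' protocols, was sequenced for 24 libraries, 4 in each of the 6 groups that the labels give. The values are FPKM, which the authors deposited for 54532 genes. Among the programs in the submitters' processing notes are the aligners HISAT2 and STAR, the counters featureCounts and StringTie, and also STAR-Fusion, with the builds mm10 and GRCm38. The sources used here do not say how each was used or whether reads were counted by strand. GENCODE M21 (GRCm38) named 54495 identifiers and left 37 unmatched. The worth of 1 read at each gene's exon length gave whole reads (tolerance 0.05) in every library for 97.0% of 27002 genes, from which depths were recovered; these reads were not tested.

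The 11377 genes that reached 1 FPKM in 4 or more libraries were tested on log2(FPKM + 1), a pseudocount of 1, with limma 3.58.1 in R 4.3.3. All 24 libraries entered 1 fit of 6 means, with the prior variance following mean level. In each of 11 comparisons p-values were Benjamini-Hochberg adjusted over all 11377 genes. Counts at an unadjusted p under 0.05 are of members only, and the share of kept genes at that threshold was not counted. The log2(FPKM + 1) scale understates the change of low genes. The procedure was tested on simulated data. The members, lists and tests were chosen with earlier results of these data known. Values in every library are given for Irf7, Irf9 and Stat2, for the 2 members of each role with the highest mean, for the member with the largest change in each comparison and for members called against the members' median. Other members are named with changes only, except Cmpk2, chosen after its values were seen. Alternatives were a pseudocount of 0.1, a filter at 5 FPKM or none, TPM, median and quantile scaling, robust empirical Bayes and leaving out each library. Promoters are from RefSeq (GRCm38.p6). One gene of the pathway list is counted but not reported here by name.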

Additional observations from a re-analysis of the deposited data

Results flagged for a closer look

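In 22 of 150 groups of 4 libraries, over the 25 genes followed library by library, 1 library lay far from the 3 others by Dixon's test. Chance gives about 1 in 20 such groups. In 18 of the 22 the library was the one labelled KO untreated 81, the highest of its group each time. The first were Irf7 (113 FPKM), Ifit2 (112 FPKM), Ifit3 (114 FPKM), Isg15 (211 FPKM), Rtp4 (94.7 FPKM) and Slfn5 (62.6 FPKM). The others were Samhd1 (53.6 FPKM), Ifi27l2a (1265 FPKM), Bst2 (651 FPKM), Oas3 (83.0 FPKM), Parp14 (59.7 FPKM) and Sp100 (42.4 FPKM), and then Dhx58 (50.1 FPKM), Rsad2 (74.1 FPKM), Zbp1 (31.5 FPKM), Ifi44 (13.8 FPKM), Ifit3b (11.1 FPKM) and Lgals3bp (347 FPKM). These genes were read in the same library, so the 18 are not independent of each other. The 4 others were Irf9 in WT S1P library 28 (16.5 FPKM, lowest), Stat2 in knockout S1P library 92 (44.5 FPKM, highest), and Ifit3 (44.0 FPKM) and Trim25 (59.2 FPKM), both highest in WT untreated library 1.

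The change with ACM differed between genotypes for 22 of the 25 genes (limma interaction term), where 9.64% of kept genes were called lower and 7.41% higher. The same 22 were called on leaving out the library labelled KO untreated 81. Some of the 25 were chosen for the largest change in these same comparisons, so their counts are not a fair sample of the members. The differences of log2 changes, knockout minus WT, with all libraries and then without that library, were largest in Ifit3 (-1.78 and -1.35), Ifit2 (-1.77 and -1.37), Rsad2 (-1.66 and -1.28), Ifit3b (-1.59 and -1.28), Ifi44 (-1.58 and -1.23), Irf7 (-1.44 and -1.22), Isg15 (-1.43 and -1.09) and Zbp1 (-1.21 and -0.95). They were smaller in Oas3 (-1.06 and -0.88), Dhx58 (-0.80 and -0.64), Slfn5 (-0.80 and -0.63), Stat2 (-0.72 and -0.59), Bst2 (-0.71 and -0.58), Rtp4 (-0.67 and -0.55) and Parp14 (-0.65 and -0.50), and smallest in Lgals3bp (-0.60 and -0.53), Samhd1 (-0.59 and -0.47), Oas2 (-0.56 and -0.54), Ddx58 (-0.56 and -0.43), Oas1a (-0.54 and -0.42), Sp100 (-0.53 and -0.41) and Trim25 (-0.52 and -0.48). The change with S1P differed for 12 of the 25, of which 11 were also called without that library. Of all kept genes 19.4% were called lower and 22.5% higher for S1P, and 19.2% and 22.3% without that library. Those differences, given in the same order, were Rsad2 (-1.31 and -0.93), Ifit2 (-1.11 and -0.70), Ifit3 (-1.06 and -0.63), Ifit3b (-0.94 and -0.63), Isg15 (-0.86 and -0.51) and Ifi44 (-0.80 and -0.46), and then Slfn5 (-0.72 and -0.55), Trim25 (-0.71 and -0.66), Irf7 (-0.64 and -0.41), Oas3 (-0.59 and -0.41), Parp14 (-0.37 and -0.22) and Samhd1 (-0.29 and -0.16). Parp14 was the one not called without it (adjusted p = 0.0574, limma), and Ifi27l2a was called without it and not with all libraries. In WT cells Ifit3 changed by 1.20 with ACM, and knockout cells by -0.58 with all libraries and by -0.15 without the library labelled KO untreated 81. All these differences rest in part on the knockout untreated group, which holds that library.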

How the results depend on the processing

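Called members kept their sign under TPM, median and quantile scaling in all 11 comparisons. Members higher in WT cells with ACM numbered 37 (TPM) to 45 (median scaling), against 44. Under the 3 scalings the ACM interaction gave 43 or 44 lower members, against 44. Some counts moved by more than 1.5 times. Members called lower with ACM in knockout cells went from 1 to 0 with TPM scaling. Members higher in knockout untreated cells went from 1 to 0 with TPM scaling and to 2 with quantile normalization. Members lower with S1P in WT cells went from 4 to 1 with median scaling and to 2 with no filter. Members with a lower S1P change in knockout cells went from 22 to 12 with no filter. The cause was not tested, but with no filter more genes were tested. Leaving out 1 library at a time gave 42 to 45 members higher with ACM in WT cells, 44 to 46 lower in knockout than in WT cells with ACM, and 43 to 45 lower in the ACM interaction. The S1P counts in WT cells ranged from 6 to 18 higher and from 1 to 6 lower. The 18 came without the library labelled KO untreated 81, and the 1 lower without WT untreated library 1 or WT S1P library 27 or 28. For knockout against WT cells with S1P the ranges were 2 to 5 higher and 14 to 29 lower, and for the S1P interaction 0 to 1 higher and 15 to 28 lower. The 5 higher came without WT S1P library 25. For ACM in knockout cells the range was 0 to 1 lower, and for untreated genotypes 1 to 2 higher and 0 to 1 lower. ACM against S1P in WT cells gave 31 to 45 higher. No paired analysis was possible because no group shares a replicate number with another. Depth limits the low members most: the fewest reads behind a member in a library were 85, and Ifnb1 had at most 2.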
